A study of Homo sapiens with 18 samples.

Results

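The genes described here are the MiT/TFE transcription factors TFEB, TFE3 and MITF together with lysosomal and autophagy genes. They were taken by name, with earlier results of these data known: 39 symbols were listed and all 39 were found among the 25369 genes of both expression tables. Of the 39, 36 had a mean normalized count of at least 10 in JEKO1 and 37 in MAVER and were tested. MITF and NEU1 were tested in neither line and SGSH only in MAVER. The study sequenced total RNA from 2 established human mantle cell lymphoma lines, JEKO1 (JeKo-1) and MAVER (MAVER-1), after 6 h of drug or vehicle. Its 18 libraries form 6 groups of 3: DMSO and IB in JEKO1, and DMSO, IB, KPT and PU in MAVER. Since the series names ibrutinib (0.4 µM) and selinexor (1.5 µM), IB is taken to be the first, which blocks the kinase BTK, and KPT the second, which blocks XPO1, a nuclear export receptor. PU and its dose are not defined in the labels, and the name is given as written. Each line is 1 cell line with its own DMSO libraries, and libraries of a group carry the letters A, B and C. They are called biological triplicates. How the cultures were kept apart is not given, so p-values speak only for the spread among the libraries sequenced.

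TFEB, TFE3 and MITF are related transcription factors that bind the CLEAR element, a short sequence with the core CACGTG found near the start of many lysosomal and autophagy genes. When nutrients are plentiful, the kinase complex mTORC1 on the lysosome phosphorylates TFEB and holds it in the cytoplasm. TFEB that has entered the nucleus is returned to the cytoplasm by XPO1, the target of selinexor. The genes they are known to serve encode the proteins of the lysosomal membrane, the hydrolases of its lumen, the V-ATPase that acidifies it and parts of the machinery that builds autophagosomes.

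Values are normalized counts, and the depth behind them ran from 5374226 reads in MAVER KPT A to 17040599 in MAVER PU B. XPO1 itself stood at 10947 to 11624 in the 3 KPT libraries and at 5134 to 5333 in the MAVER DMSO libraries. RNA45S5, the precursor of ribosomal RNA, was listed at 53819 in KPT A, 66933 in KPT C and 65331 in JEKO1 DMSO C, against 7919 to 32274 in the other 15 libraries. All 6 B cell markers and both mantle cell lymphoma markers (CCND1 and SOX11) were present in both lines. Summed markers of T and NK cells reached at most 17.9, and those of monocytes and macrophages at most 26.1. Among the latter, ITGAM ran from 5.78 to 22.67 in MAVER, and FCGR1A and MPO were at 0 in every library. The 6 stromal, epithelial and endothelial markers summed to 1512 to 1559 in PU against 527.8 to 588.7 in MAVER DMSO, and to 144.5 to 161.1 in JEKO1 IB against 254.7 to 281.2 in JEKO1 DMSO. COL1A1 reached 733.4 in MAVER and 19.06 in JEKO1. PECAM1 ran from 304.9 to 587.4 in MAVER and from 114.7 to 269.4 in JEKO1. EPCAM ran from 154.2 to 299.2 in MAVER and from 3.353 to 17.25 in JEKO1. KRT8 stayed at or below 7.941, COL1A2 at or below 2.38, and DCN was at 0 in every library. The part of these markers in the PU and JEKO1 results below was not tested. Of 1415 genes called with IB in both lines, 1260 (89%) went opposite ways. All directions in JEKO1 below hold for the labels as given, since an exchange of the JEKO1 labels and an opposite response cannot be told apart.

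A gene is said to have risen or fallen only where limma's moderated test on log2(normalized count + 1) gave a Benjamini-Hochberg adjusted p under 0.05 over all genes tested. Differences below are log2 differences on that scale with their standard error (SE), from 3 libraries in each group. In JEKO1, 8 of the 36 members tested rose with IB, where 21.9% of all 11609 genes did, and 10 fell, where 20.2% of all genes did. In MAVER with IB, 2 of 37 members rose (10.1% of all 11099 genes) and 11 fell (9.65%). With KPT, 16 of 37 rose (27.3% of all genes) and 7 fell (28.5%). With PU, 19 of 37 rose (27.6%) and 4 fell (27.5%). In JEKO1 both shares of members (22.2% and 27.8%) lay near those of all genes. In MAVER, 29.7% of members fell with IB, 43.2% rose with KPT and 51.4% rose with PU. The members' median log2 difference was -0.02 in JEKO1, -0.11 with IB in MAVER, 0.10 with KPT and 0.20 with PU, while the median of all genes lay within 0.01 of 0 in each. Leaving out KPT A and KPT C, the libraries rich in RNA45S5, keeps KPT B as the only KPT library. Whether calls lost in that setting below go with RNA45S5 or with the smaller group was not tested. In each library the members summed to a share of all normalized counts: 0.433% to 0.444% in MAVER DMSO, 0.398% to 0.412% in IB, 0.499% to 0.516% in KPT and 0.502% to 0.519% in PU. The KPT and PU ranges lay above the DMSO range and the IB range below it. PSAP alone made up 30.8% to 31.8% of this sum in DMSO, 36.3% to 36.8% in KPT and 35.8% to 36.7% in PU. Without PSAP the shares were 0.300% to 0.304% in DMSO, 0.275% to 0.282% in IB, 0.318% to 0.327% in KPT and 0.323% to 0.328% in PU. In JEKO1 the shares of DMSO (0.322% to 0.335%) and IB (0.321% to 0.335%) overlap. Without PSAP they did not, at 0.224% to 0.228% with DMSO and 0.242% to 0.248% with IB.

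**Figure D1:**
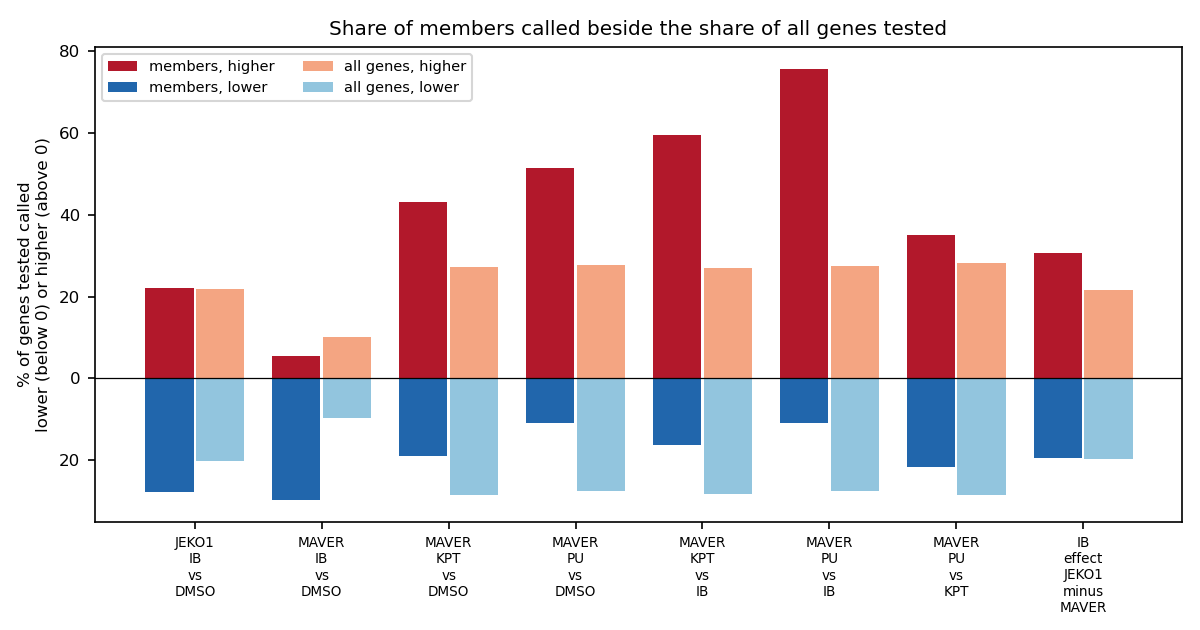
Percent of genes tested that were called higher (above 0) or lower (below 0) in each of the 8 comparisons; dark bars are the members and light bars all genes tested. The dark bar for higher genes is longest in PU against IB (75.7%) and shortest for IB in MAVER (5.41%).

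The CLEAR core was looked up in RefSeq promoter windows (GRCh38.p14, 250 bases before to 50 after each annotated start, both strands), and 26 of the 39 members had a window. These coordinates are RefSeq's, while the expression values were made on hg19. CACGTG was present in windows of 10 of these 26 genes (38.5%), against 2396 of 27305 genes in the table (8.77%). The longer GTCACGTG, which contains the core, was in 9 of the 26 (34.6%) against 800 of 27305 (2.93%). The members were listed as lysosomal and autophagy genes, many of which are known to carry this core, so these shares are a description and no test. A match is a description of letters, not of a bound site. The stretches below were chosen because the genes carry the same core and moved differently: LAMP1, ATP6V0B and ATP6V0D1 fell with KPT, CLN3, CTSD and SCPEP1 rose with KPT and PU, and MCOLN1 was called with neither. CTSA and GAA also carry the core and were called with neither, and NEU1 carries it and was not tested. These are not printed. Since the choice followed the calls, the printed stretches cannot show how the core goes with direction. Each is written 5′ to 3′ on the strand of its gene, with the core in capitals.
LAMP1 chr13:113297027-113297236 (+): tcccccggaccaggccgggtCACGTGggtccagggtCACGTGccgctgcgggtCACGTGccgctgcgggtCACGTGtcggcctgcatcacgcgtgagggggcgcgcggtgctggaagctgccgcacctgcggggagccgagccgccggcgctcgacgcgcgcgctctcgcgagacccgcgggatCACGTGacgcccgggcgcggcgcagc
ATP6V0B chr1:43974883-43974946 (+): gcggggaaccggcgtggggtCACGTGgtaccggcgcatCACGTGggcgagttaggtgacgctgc
ATP6V0D1 chr16:67481191-67481236 (-): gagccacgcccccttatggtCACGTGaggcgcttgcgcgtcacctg
CLN3 chr16:28492083-28492124 (-): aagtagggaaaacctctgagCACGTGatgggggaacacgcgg
CTSD chr11:1763949-1763994 (-): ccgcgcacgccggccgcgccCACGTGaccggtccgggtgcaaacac
SCPEP1 chr17:56978084-56978129 (+): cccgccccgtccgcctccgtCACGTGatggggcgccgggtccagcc
MCOLN1 chr19:7522563-7522623 (+): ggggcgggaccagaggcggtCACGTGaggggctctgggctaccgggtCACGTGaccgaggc
The LAMP1 stretch holds 5 copies of the core, those of ATP6V0B and MCOLN1 hold 2 each, and the rest hold 1. Each stretch stops before the annotated start, and the whole windows hold 6 copies for LAMP1 and 2 for CLN3. Of the 8 members with a window that rose with KPT, 3 carried the core, and of the 6 that fell, 3 did. With PU, 3 of 11 that rose and 1 of 3 that fell carried it. Of the 10 with a window that were called neither way, 3 carried it for KPT and 5 for PU. The core letters were absent from the windows of TFEB, TFE3 and MITF themselves, and from those of CTSZ, NPC2, MAP1LC3B, GABARAPL1 and ULK1. They were also absent from those of NPC1, CTSH, TPP1, GLA, GUSB, LIPA, ATP6AP1 and WIPI1. PSAP, SGSH and NAGLU were among the members without a window.

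TFEB, the family's best-known member, was lower with KPT in MAVER and higher with IB in JEKO1. Its normalized counts in libraries A, B and C were 454, 461 and 416 in MAVER DMSO, 443, 409 and 409 in IB, 307, 282 and 318 in KPT and 437, 439 and 406 in PU. All 3 KPT libraries lay below every other MAVER library. TFEB fell with KPT (-0.55 ± 0.07 SE, limma adjusted p = 3.55e-08), to 0.681 of its DMSO level. It was not called with PU (-0.05 ± 0.07 SE, limma adjusted p = 0.557, 95% interval -0.20 to 0.10) or with IB (-0.08 ± 0.07 SE, limma adjusted p = 0.532). In JEKO1 it read 949.6, 901 and 878 with DMSO and 1348, 1230.3 and 1294 with IB, groups that do not overlap, and it rose (0.50 ± 0.05 SE, limma adjusted p = 2.71e-07). TFE3, whose protein is held back by the same kinase, rose 1.73-fold with IB in JEKO1 (0.79 ± 0.08 SE, limma adjusted p = 1.14e-07), from 248, 250.4 and 282 to 462, 425 and 464. In MAVER its libraries ran from 392 to 531 over the 4 groups, and it was called in none of the 3 comparisons with DMSO. MITF, the melanocyte and myeloid member, had 1 read in JEKO1 DMSO A and 0 in the other 17 libraries. A count of 0 allows up to 3 reads, so its level was not measurable at this depth.

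**Figure D2:**
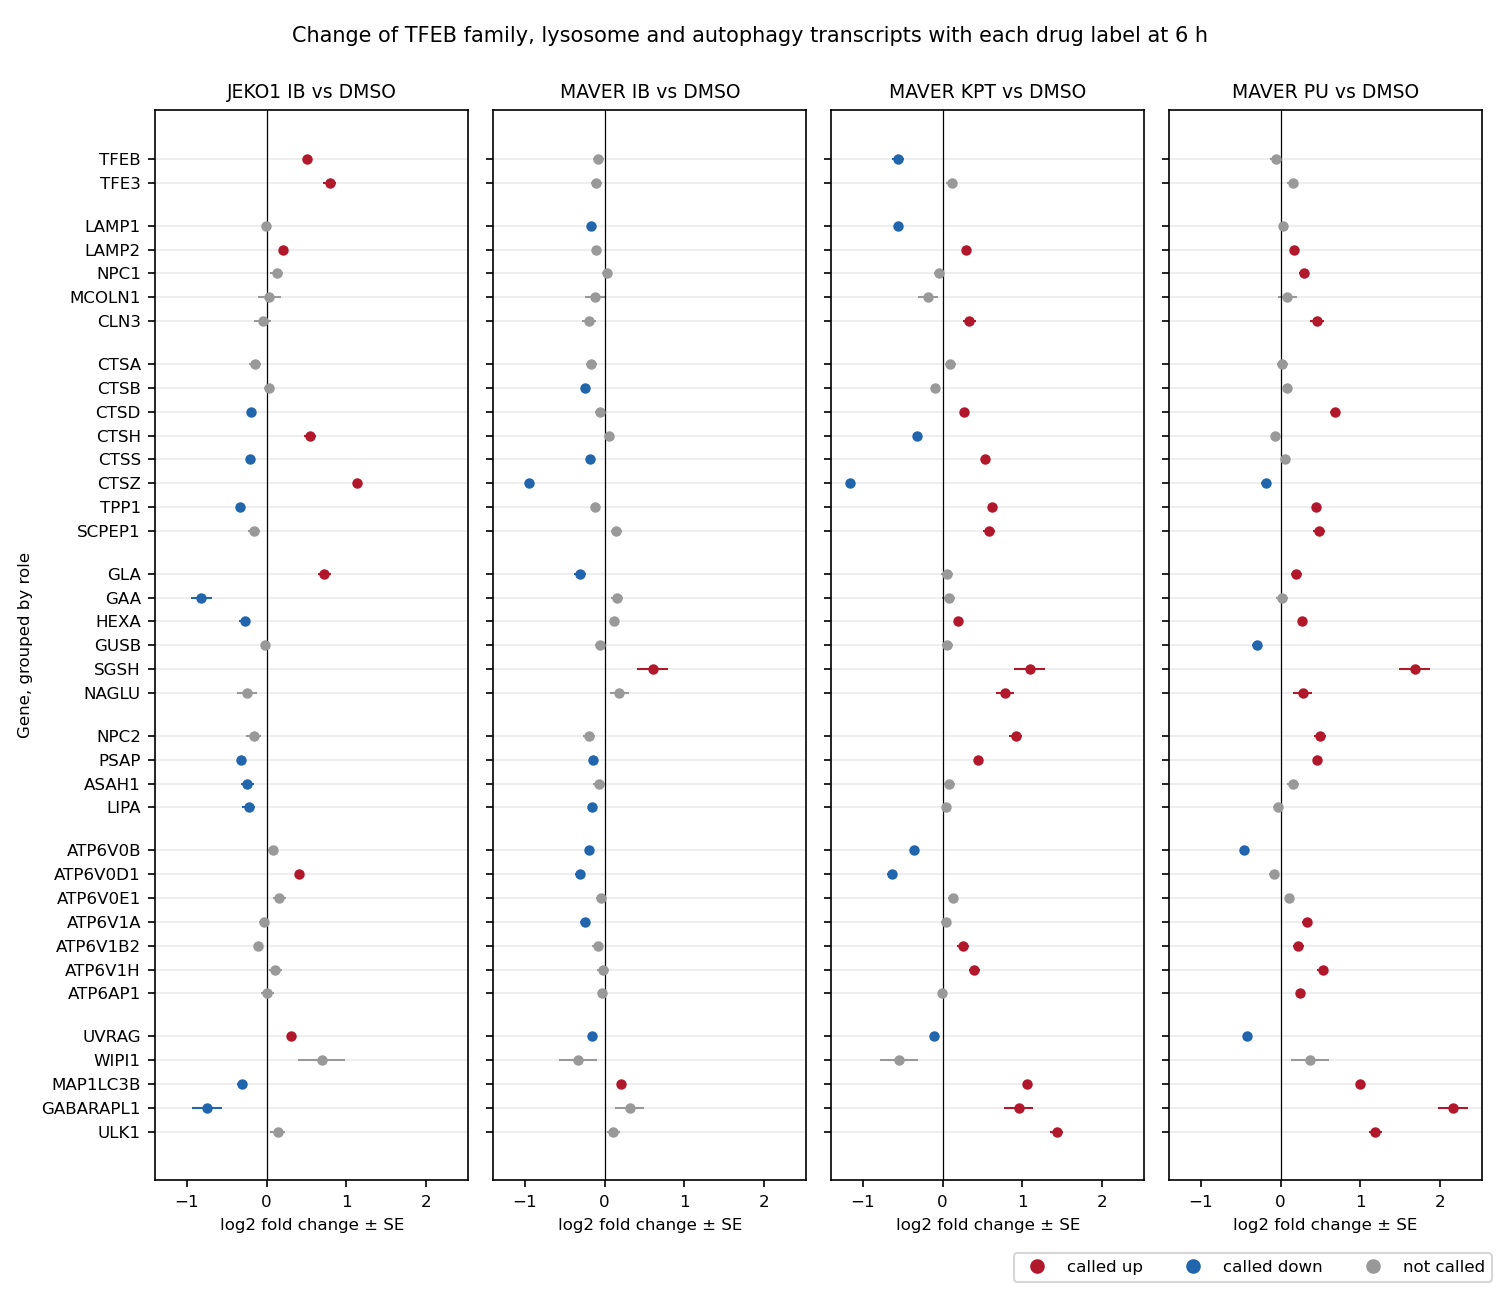
Log2 difference ± SE of each member tested, grouped by role from transcription factors (top) to autophagy genes (bottom), for the 4 comparisons of a drug with its DMSO; red is called up, blue called down and grey not called. The autophagy genes MAP1LC3B, GABARAPL1 and ULK1 lie to the right with KPT and PU, while CTSZ lies to the left with IB and KPT in MAVER and to the right in JEKO1.

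The 5 lysosomal membrane proteins did not move as a block. LAMP1 and LAMP2, the abundant glycoproteins that line the membrane, went opposite ways with KPT. LAMP1 read 1464, 1467 and 1545 with DMSO, 1398, 1367 and 1221 with IB, 1063, 984 and 987 with KPT and 1559, 1489 and 1538 with PU in MAVER. The KPT libraries were the lowest and did not overlap with any other group. LAMP1 fell with KPT (-0.56 ± 0.05 SE, limma adjusted p = 6.19e-12) and was not called with PU (0.04 ± 0.05 SE, limma adjusted p = 0.595). It also fell with IB (-0.17 ± 0.05 SE, limma adjusted p = 0.0172), a call that was lost without DMSO C (-0.14, limma adjusted p = 0.103) and without IB C (-0.11, limma adjusted p = 0.165). LAMP2 read 1784, 1760.3 and 1863 with DMSO, 2263, 2168 and 2208 with KPT and 2109, 2042 and 1954 with PU. LAMP2 rose with KPT (0.30 ± 0.05 SE, limma adjusted p = 4.78e-07) and with PU (0.17 ± 0.05 SE, limma adjusted p = 0.00111), and in JEKO1 with IB (0.21 ± 0.05 SE, limma adjusted p = 0.0037), where its values went from 850.4, 887 and 897 to 1027, 988 and 1022.

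NPC1, which passes cholesterol out through the lysosomal membrane, was called against DMSO with PU only. It rose from 677, 627 and 608 to 767, 769.5 and 804 (0.29 ± 0.06 SE, limma adjusted p = 0.000107), groups that do not overlap. It was not called with KPT (613, 586 and 657, -0.04 ± 0.06 SE, limma adjusted p = 0.575). CLN3, the membrane protein lost in juvenile Batten disease, read 378, 318 and 353 with DMSO, 473, 394 and 457 with KPT and 499, 448 and 492 with PU. It rose with both (0.34 ± 0.08 SE, limma adjusted p = 0.000687 for KPT, 0.46 ± 0.08 SE, limma adjusted p = 1.03e-05 for PU). With KPT A and KPT C left out together, the KPT call was lost (0.18, limma adjusted p = 0.215). CLN3 shares exon bases with APOBR on the opposite strand, and whether strand was used in counting is not given, so its reads are uncertain. For the same reason NPC1 (with RMC1), SGSH (with CARD14) and WIPI1 (with ARSG) are uncertain. CLN3, CTSD, HEXA and MCOLN1 also share exon bases with a coding locus on their own strand, so counting could split their reads. In all, 15 members share exon bases with another gene of the GENCODE annotation, 8 of them with a protein-coding one. MCOLN1, the calcium channel of the membrane, was called in no comparison with DMSO and ran from 103 to 147 in MAVER and 80.1 to 109 in JEKO1.

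Among the 8 cathepsins and other peptidases, 4 rose and 2 fell with KPT (50% and 25%, where 27.3% and 28.5% of all genes did), and 3 rose and 1 fell with PU (37.5% and 12.5%, against 27.6% and 27.5%). CTSZ, a carboxypeptidase of the cysteine cathepsins, had the largest fall of any member against DMSO. Its MAVER values were 1190.1, 1216 and 1244 with DMSO, 664, 621 and 609 with IB, 545, 554 and 535 with KPT and 1006, 1085 and 1126 with PU. The IB and KPT libraries lie far under the DMSO libraries, and the PU libraries lie just below them. CTSZ fell with IB (-0.95 ± 0.06 SE, limma adjusted p = 6.04e-17), with KPT (-1.16 ± 0.06 SE, limma adjusted p = 2.71e-20) and with PU (-0.18 ± 0.06 SE, limma adjusted p = 0.00577), the last of which was lost without PU A (-0.14, limma adjusted p = 0.0656). In JEKO1 it stood at 883, 863 and 849 with DMSO and 1931, 1874 and 1909.6 with IB, a rise of 2.20-fold (1.14 ± 0.05 SE, limma adjusted p = 2.36e-13).

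CTSD, the aspartic protease of the lysosome, read 1072, 1038 and 1110.0 with DMSO, 1329, 1226 and 1343 with KPT and 1635, 1693 and 1837 with PU. All PU libraries were above all KPT libraries, which were above all DMSO libraries. It rose with PU (0.68 ± 0.06 SE, limma adjusted p = 6.1e-13) and with KPT (0.27 ± 0.06 SE, limma adjusted p = 0.000125), the KPT call being lost with KPT A and KPT C left out together (0.19, limma adjusted p = 0.0627). TPP1, which trims tripeptides from protein ends, read 1305, 1321 and 1273 with DMSO, 2009, 1913 and 2085 with KPT and 1773, 1656 and 1897 with PU. It rose with KPT (0.62 ± 0.05 SE, limma adjusted p = 1.03e-13) and PU (0.45 ± 0.05 SE, limma adjusted p = 5.45e-10). SCPEP1, a serine carboxypeptidase, read 377, 449.6 and 381 with DMSO, 624, 629.6 and 552 with KPT and 559, 567 and 555 with PU and rose with both (0.58 ± 0.07 SE, limma adjusted p = 5.92e-09 and 0.48 ± 0.07 SE, limma adjusted p = 3.05e-07). In JEKO1 with IB, TPP1 fell from 1136, 1200.4 and 1228 to 940.2, 933 and 943 (-0.34 ± 0.05 SE, limma adjusted p = 2.38e-05). CTSD also fell there (-0.19 ± 0.06 SE, limma adjusted p = 0.00948), a call lost without DMSO B (-0.16, limma adjusted p = 0.063) or IB B (-0.17, limma adjusted p = 0.0543).

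CTSS, which cuts the invariant chain of MHC class II in antigen-presenting cells, separated KPT from PU. It read 1638, 1657 and 1713 with DMSO, 1454, 1452 and 1515 with IB, 2304, 2363 and 2556 with KPT and 1778, 1736 and 1685 with PU. The KPT libraries were the highest, and the PU libraries overlapped with the DMSO libraries. CTSS rose with KPT (0.53 ± 0.05 SE, limma adjusted p = 1.67e-12), fell with IB (-0.18 ± 0.05 SE, limma adjusted p = 0.0042) and was not called with PU (0.05 ± 0.05 SE, limma adjusted p = 0.343). In JEKO1 it also fell with IB (-0.20 ± 0.06 SE, limma adjusted p = 0.00961), lost without DMSO A (-0.17, limma adjusted p = 0.0628). CTSH, an aminopeptidase of the same family, fell with KPT from 1357, 1358 and 1374 to 1059.8, 1052 and 1171 (-0.32 ± 0.05 SE, limma adjusted p = 9.28e-07) and rose in JEKO1 from 284, 279 and 284 to 413, 397 and 425 (0.54 ± 0.07 SE, limma adjusted p = 6.24e-06). CTSB, a broad cysteine protease, fell with IB in MAVER from 1026, 1083 and 1066 to 895, 925 and 859 (-0.25 ± 0.05 SE, limma adjusted p = 0.000385) and was called in no other comparison with DMSO. CTSA, the protective protein that holds other lysosomal enzymes in a stable complex, was called in none. It shares exon bases with PLTP and NEURL2 on the opposite strand and is uncertain for that reason.

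The glycosidase and sulfatase group has 7 genes, of which 6 were tested in MAVER. Of these, 3 rose with KPT (50%, where 27.3% of all genes did), and 4 rose and 1 fell with PU (66.7% and 16.7%, against 27.6% and 27.5%). SGSH and NAGLU take heparan sulfate apart. SGSH, the sulfamidase, read 32.2, 35.2 and 42.2 with DMSO, 59.7, 68.2 and 42.5 with IB, 55.6, 92.7 and 94.7 with KPT and 92.4, 138 and 131 with PU in MAVER. Every treated library was above every DMSO library, IB C by the smallest margin. SGSH rose with PU (1.68 ± 0.19 SE, limma adjusted p = 1.19e-09) and KPT (1.09 ± 0.19 SE, limma adjusted p = 7.75e-06). It also rose with IB (0.60 ± 0.19 SE, limma adjusted p = 0.0224), a call lost without DMSO A (0.52, limma adjusted p = 0.105), DMSO B (0.58, limma adjusted p = 0.0531), IB A (0.55, limma adjusted p = 0.0768) or IB B (0.46, limma adjusted p = 0.161). In JEKO1 SGSH had only 3 to 17 reads and was not tested. NAGLU, the N-acetylglucosaminidase, read 138, 185 and 139 with DMSO, 258, 278 and 255 with KPT and 163, 172 and 226 with PU. It rose with KPT (0.79 ± 0.12 SE, limma adjusted p = 2.97e-07). Its smaller rise with PU (0.28 ± 0.12 SE, limma adjusted p = 0.0412), whose libraries overlap with DMSO, was lost without DMSO A (0.21, limma adjusted p = 0.187), DMSO C (0.21, limma adjusted p = 0.179) or PU C (0.13, limma adjusted p = 0.374).

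HEXA, a subunit of the hexosaminidase lost in Tay-Sachs disease, read 886, 858 and 891 with DMSO, 999, 985 and 1024 with KPT and 1091, 1052 and 1042 with PU. It rose with PU (0.27 ± 0.05 SE, limma adjusted p = 2.46e-05) and with KPT (0.19 ± 0.05 SE, limma adjusted p = 0.00199), the latter lost with KPT A and KPT C left out together (0.16, limma adjusted p = 0.0718). In JEKO1 it fell with IB (-0.28 ± 0.06 SE, limma adjusted p = 0.00136). GLA, the galactosidase lost in Fabry disease, went opposite ways in the lines. It fell with IB in MAVER from 496, 441 and 471 to 389, 381 and 364 (-0.31 ± 0.07 SE, limma adjusted p = 0.00136) and rose in JEKO1 from 267, 259 and 241 to 459, 416 and 394 (0.72 ± 0.08 SE, limma adjusted p = 5.19e-07). Its rise with PU (0.20 ± 0.07 SE, limma adjusted p = 0.0198) was lost without DMSO B (0.15, limma adjusted p = 0.113), PU A (0.18, limma adjusted p = 0.0703) or PU B (0.16, limma adjusted p = 0.0976).

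GAA, which breaks down glycogen, was called only in JEKO1 among the comparisons with DMSO. It fell there from 346, 286 and 228 to 163, 133 and 188 (-0.82 ± 0.13 SE, limma adjusted p = 5.57e-05), while its MAVER libraries ran from 471 to 628. GUSB, the glucuronidase, fell with PU from 832, 817 and 758 to 668, 589.9 and 711 (-0.29 ± 0.07 SE, limma adjusted p = 0.000269) and was not called with KPT (897, 753 and 867, 0.06 ± 0.07 SE, limma adjusted p = 0.451). NEU1, the sialidase, was listed at 0 in all 18 libraries. An exact 0 in every library of both tables may come from the annotation or the counting, so nothing is read from it about expression.

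Of the 4 genes of lipid handling in the lumen, NPC2 and PSAP rose with both KPT and PU. NPC2, which hands cholesterol to NPC1, read 368, 334 and 414 with DMSO, 329, 296 and 347 with IB, 687, 641 and 777 with KPT and 505, 544 and 521 with PU. The groups separate in the order IB and DMSO, which overlap, then PU, then KPT. NPC2 rose with KPT (0.91 ± 0.08 SE, limma adjusted p = 6.68e-13), a 1.89-fold change, and with PU (0.50 ± 0.08 SE, limma adjusted p = 1.08e-06). PSAP, the precursor of the saposins that present lipids to hydrolases, read 13373, 13167 and 12596 with DMSO, 12199.7, 11661 and 11531 with IB, 18085, 17044 and 18172 with KPT and 17857, 17357 and 18520.2 with PU. KPT and PU libraries overlap each other and lie above all DMSO and IB libraries. PSAP rose with KPT (0.45 ± 0.04 SE, limma adjusted p = 8.19e-13) and PU (0.46 ± 0.04 SE, limma adjusted p = 3.22e-13) and fell with IB in MAVER (-0.15 ± 0.04 SE, limma adjusted p = 0.00501) and JEKO1 (-0.32 ± 0.04 SE, limma adjusted p = 6.31e-06).

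ASAH1, the acid ceramidase, and LIPA, the acid lipase, were not called with KPT or PU. ASAH1 fell with IB in JEKO1 from 561, 534 and 666 to 475, 489.6 and 519 (-0.24 ± 0.08 SE, limma adjusted p = 0.0158). ASAH1 lost its call without DMSO C (-0.15, limma adjusted p = 0.108), IB A (-0.21, limma adjusted p = 0.0604) or IB B (-0.23, limma adjusted p = 0.0542). LIPA fell with IB in MAVER from 857, 855 and 877 to 773, 800.1 and 754 (-0.15 ± 0.06 SE, limma adjusted p = 0.0467), and without any of DMSO A, DMSO B, DMSO C, IB A and IB C its adjusted p rose to between 0.0792 and 0.141. The estimates were -0.16, limma adjusted p = 0.095; -0.16, limma adjusted p = 0.0792; -0.14, limma adjusted p = 0.141; -0.15, limma adjusted p = 0.103; and -0.13, limma adjusted p = 0.132, in that order. LIPA also fell in JEKO1 (-0.23 ± 0.08 SE, limma adjusted p = 0.0381), lost without DMSO B (-0.21, limma adjusted p = 0.0979), DMSO C (-0.17, limma adjusted p = 0.152), IB A (-0.19, limma adjusted p = 0.124) or IB C (-0.20, limma adjusted p = 0.094).

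The V-ATPase pumps protons with a membrane part (V0) and a cytoplasmic part that splits ATP (V1). Of the 7 V-ATPase members, 2 rose and 2 fell with KPT (28.6% each, near the shares of all genes), and 4 rose and 1 fell with PU (57.1% and 14.3%). ATP6V0B, a subunit of the rotating V0 ring, read 2209, 2168 and 1964 with DMSO, 1892, 1865 and 1770.4 with IB, 1609, 1658 and 1692 with KPT and 1457, 1570.2 and 1572 with PU. It fell with IB (-0.20 ± 0.05 SE, limma adjusted p = 0.00269), KPT (-0.35 ± 0.05 SE, limma adjusted p = 8.57e-08) and PU (-0.46 ± 0.05 SE, limma adjusted p = 1.6e-10). ATP6V0D1, the V0 subunit that couples the ring to the V1 shaft, read 831, 857 and 788 with DMSO, 704, 656 and 640.4 with IB, 536, 535 and 525 with KPT and 777, 729 and 831 with PU. The DMSO and PU libraries overlap, IB is lower and KPT lowest. It fell with IB (-0.31 ± 0.06 SE, limma adjusted p = 0.000166) and KPT (-0.63 ± 0.06 SE, limma adjusted p = 1.39e-11), was not called with PU (-0.08 ± 0.06 SE, limma adjusted p = 0.246), and rose in JEKO1 from 1451, 1611 and 1555 to 2089, 2031 and 1979 (0.40 ± 0.05 SE, limma adjusted p = 1.51e-06). ATP6V0E1, a small V0 subunit, was called against DMSO in neither line.

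ATP6V1H, a regulatory subunit of V1, read 413, 402 and 369.7 with DMSO, 506, 557 and 499.6 with KPT and 601, 548 and 558 with PU. It rose with KPT (0.40 ± 0.07 SE, limma adjusted p = 1.23e-05) and PU (0.53 ± 0.07 SE, limma adjusted p = 6.69e-08). ATP6V1A, the catalytic subunit, read 542, 593 and 525 with DMSO, 456, 453 and 493 with IB and 714, 686 and 691 with PU. It rose with PU (0.33 ± 0.06 SE, limma adjusted p = 2.68e-05) and fell with IB (-0.24 ± 0.06 SE, limma adjusted p = 0.00442), the latter lost without DMSO B (-0.19, limma adjusted p = 0.0542). ATP6V1B2, its partner in the ATP-splitting ring, rose with KPT (0.26 ± 0.07 SE, limma adjusted p = 0.00185) from 489, 480.1 and 462 to 612, 550.0 and 549, lost with KPT A and KPT C left out together (0.21, limma adjusted p = 0.0859). Its rise with PU (0.22 ± 0.07 SE, limma adjusted p = 0.00637), to 595, 544 and 532, was lost without PU A (0.17, limma adjusted p = 0.0583). ATP6AP1, an accessory protein of pump assembly, rose with PU from 1741, 1763 and 1674 to 1989.7, 1966 and 2177 (0.24 ± 0.05 SE, limma adjusted p = 6.51e-05) and was not called with KPT (-0.01 ± 0.05 SE, limma adjusted p = 0.857).

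Of the 5 autophagy genes, 3 rose and 1 fell with KPT, and 3 rose and 1 fell with PU (60% and 20% each time, where 27.3% and 28.5% of all genes did with KPT and 27.6% and 27.5% with PU). ULK1, the kinase that starts autophagosome formation, read 203, 235 and 219.7 with DMSO, 262, 227 and 219.8 with IB, 568, 581 and 627 with KPT and 493, 477 and 533 with PU in MAVER. All KPT and PU libraries were above all DMSO and IB libraries. ULK1 rose 2.70-fold with KPT (1.43 ± 0.08 SE, limma adjusted p = 3.06e-18) and 2.28-fold with PU (1.19 ± 0.08 SE, limma adjusted p = 6.2e-16). MAP1LC3B, which is joined to lipid on the growing autophagosome, read 957, 922 and 920.1 with DMSO, 1097, 1010.1 and 1116 with IB, 2059, 1934 and 1863 with KPT and 1923, 1843 and 1825 with PU. KPT and PU libraries overlap each other and lie above all others. MAP1LC3B rose with KPT (1.06 ± 0.05 SE, limma adjusted p = 1.24e-20), PU (2.00-fold, limma adjusted p = 4.76e-20) and, to a smaller extent, IB (0.20 ± 0.05 SE, limma adjusted p = 0.00271). In JEKO1 it fell with IB from 1409, 1367 and 1553 to 1132, 1155 and 1195 (-0.31 ± 0.05 SE, limma adjusted p = 9.88e-05).

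GABARAPL1, a relative of MAP1LC3B in the same conjugation step, was low in abundance and gave the largest rise of any member against DMSO. Its MAVER values were 28.6, 22.9 and 27.4 with DMSO, 31.8, 35.8 and 30.8 with IB, 43.0, 52.3 and 61.1 with KPT and 119, 122 and 120.1 with PU. Every PU library was above every KPT library, and every KPT library above every DMSO and IB library. GABARAPL1 rose with PU (2.16 ± 0.18 SE, limma adjusted p = 4.23e-13) and KPT (0.95 ± 0.18 SE, limma adjusted p = 3.02e-05), and fell in JEKO1 with IB from 65.5, 67.1 and 77.3 to 46.9, 32.1 and 46.0 (-0.75 ± 0.18 SE, limma adjusted p = 0.00256). MAP1LC3B and GABARAPL1 both have near-identical copies in the genome, and how shared reads were counted is not given, so their levels are uncertain to that extent. UVRAG, a partner of Beclin in the lipid kinase complex, ran the other way: 2248, 2178 and 2199.7 with DMSO, 2039, 1917 and 1997 with IB, 2061, 1997 and 2108 with KPT and 1652, 1669 and 1624 with PU. It fell with PU (-0.42 ± 0.04 SE, limma adjusted p = 1.07e-10) and rose in JEKO1 from 1734, 1702 and 1761 to 2113, 2238 and 2075 (0.31 ± 0.05 SE, limma adjusted p = 1.95e-05). WIPI1, which binds the lipid this complex makes, was called against DMSO in neither line and stood at 17.4 to 43.8 in MAVER.

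Both smaller falls of UVRAG were less stable. Its fall with IB in MAVER (-0.15 ± 0.04 SE, limma adjusted p = 0.00925) was lost without DMSO A (-0.14, limma adjusted p = 0.0537) or IB B (-0.13, limma adjusted p = 0.0678). Its fall with KPT (-0.10 ± 0.04 SE, limma adjusted p = 0.0435) was lost without DMSO A (-0.09, limma adjusted p = 0.136), DMSO B (-0.11, limma adjusted p = 0.0574) or DMSO C (-0.11, limma adjusted p = 0.0734). The same held without KPT A (-0.11, limma adjusted p = 0.0719), without KPT B (-0.08, limma adjusted p = 0.156) and with KPT A and KPT C left out together (-0.15, limma adjusted p = 0.0619).

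**Figure D3:**
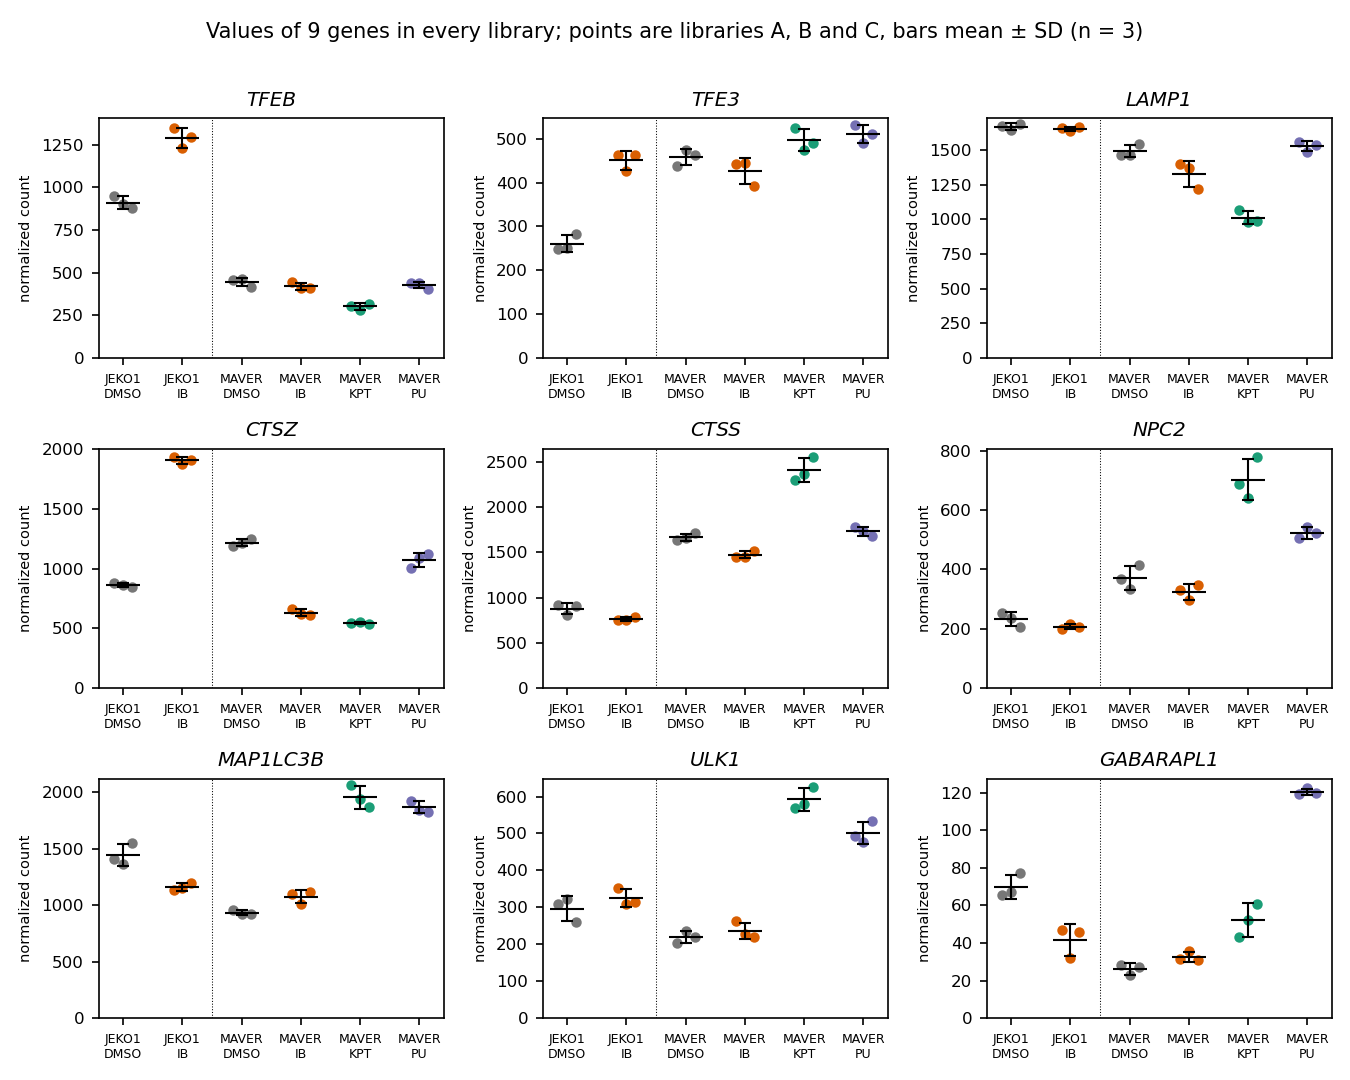
Normalized count of 9 members in each of the 18 libraries; points are libraries, bars the mean ± SD (n = 3), and the dotted line separates the JEKO1 and MAVER tables, which were normalized separately. In MAVER, TFEB and LAMP1 are lowest with KPT, CTSS and NPC2 highest with KPT, and GABARAPL1 highest with PU.

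KPT and PU share their DMSO libraries, so they were set against each other directly. In PU against KPT, 13 of 37 members were higher in PU (28.3% of all genes were) and 8 lower (28.6%). The members' median difference was 0.08. TFEB (0.50 ± 0.07 SE, limma adjusted p = 2.91e-07), LAMP1 (0.60 ± 0.05 SE, limma adjusted p = 1.02e-12), ATP6V0D1 (0.55 ± 0.06 SE, limma adjusted p = 4.98e-10) and CTSH (0.25 ± 0.05 SE, limma adjusted p = 4.14e-05), which had fallen with KPT and were not called with PU, were higher in PU. CTSZ (0.98 ± 0.06 SE, limma adjusted p = 3.86e-18) and GABARAPL1 (1.21 ± 0.18 SE, limma adjusted p = 5.27e-07) had the largest differences. CTSD (0.41 ± 0.06 SE, limma adjusted p = 1.91e-07), NPC1 (0.34 ± 0.06 SE, limma adjusted p = 1.41e-05) and WIPI1 (0.91 ± 0.24 SE, limma adjusted p = 0.00128) were also higher in PU. Lower in PU were CTSS (-0.47 ± 0.05 SE, limma adjusted p = 2.79e-11), NPC2 (-0.42 ± 0.08 SE, limma adjusted p = 1.89e-05), NAGLU (-0.51 ± 0.12 SE, limma adjusted p = 0.000289) and UVRAG (-0.32 ± 0.04 SE, limma adjusted p = 7.91e-08). MAP1LC3B (-0.07 ± 0.05 SE, limma adjusted p = 0.273, 95% interval -0.17 to 0.04) and PSAP (0.01 ± 0.04 SE, limma adjusted p = 0.812, 95% interval -0.07 to 0.09) were not called.

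Smaller differences between PU and KPT changed their call when single libraries were left out. SGSH was higher in PU (0.59 ± 0.19 SE, limma adjusted p = 0.00958), lost without KPT A (0.34, limma adjusted p = 0.147), without PU B (0.48, limma adjusted p = 0.0673) and with KPT A and KPT C left out together (0.36, limma adjusted p = 0.26). ULK1 was lower in PU (-0.24 ± 0.08 SE, limma adjusted p = 0.0109), lost without KPT C (-0.20, limma adjusted p = 0.0664), without PU B (-0.21, limma adjusted p = 0.0604) and with KPT A and KPT C left out (-0.21, limma adjusted p = 0.14). LAMP2 was lower (-0.12 ± 0.05 SE, limma adjusted p = 0.02), lost without KPT A (-0.11, limma adjusted p = 0.0768), without PU C (-0.09, limma adjusted p = 0.109) and with both KPT libraries left out (-0.09, limma adjusted p = 0.258). TPP1 was lower (-0.17 ± 0.05 SE, limma adjusted p = 0.00309), lost without PU B (-0.13, limma adjusted p = 0.052) and with both left out (-0.11, limma adjusted p = 0.22). GUSB was lower (-0.35 ± 0.07 SE, limma adjusted p = 1.91e-05) and lost only in the last case (-0.20, limma adjusted p = 0.066). With both KPT libraries left out, KPT B alone stood for its group, and the part of the smaller group in these losses was not tested.

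**Figure D4:**
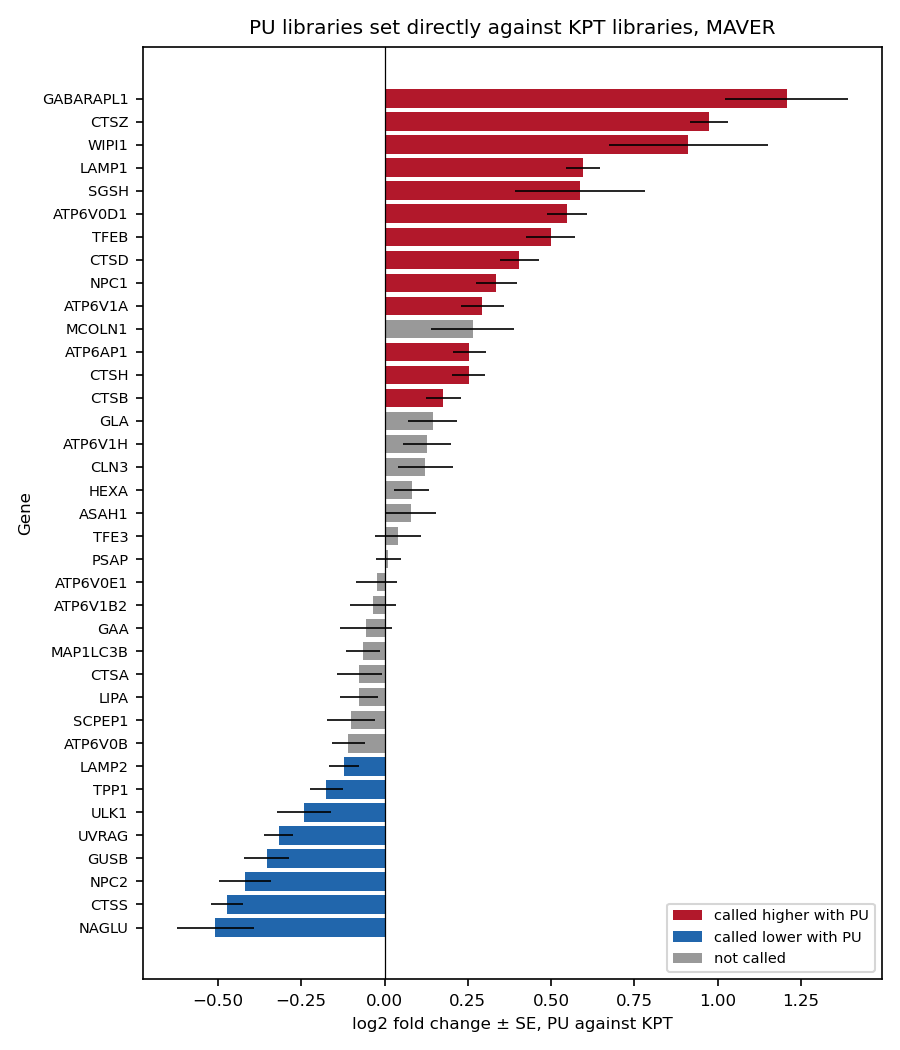
Log2 difference ± SE of PU against KPT in MAVER for the 37 members tested, sorted; red is called higher with PU, blue called lower and grey not called. GABARAPL1, CTSZ and WIPI1 head the list and NAGLU, CTSS and NPC2 end it.

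The drugs were also compared with IB in MAVER. In KPT against IB, 22 of 37 members were higher (27% of all genes) and 6 lower (28.2%), with a median difference of 0.22. In PU against IB, 28 of 37 were higher (27.5% of all genes) and 4 lower (27.6%), with a median of 0.28. Both comparisons use the same IB libraries. ULK1 was 2.51-fold higher in KPT (1.32 ± 0.08 SE, limma adjusted p = 4.44e-17) and 2.12-fold higher in PU (1.08 ± 0.08 SE, limma adjusted p = 9.76e-15). NPC2 was higher in KPT (1.11 ± 0.08 SE, limma adjusted p = 3.24e-15) and in PU (0.69 ± 0.08 SE, limma adjusted p = 9.3e-10). ATP6V1A, which was not called with KPT against DMSO, was higher than with IB in KPT (0.28 ± 0.06 SE, limma adjusted p = 0.000263) and in PU (0.58 ± 0.06 SE, limma adjusted p = 4.72e-10). CTSZ stood lower in KPT (-0.21 ± 0.06 SE, limma adjusted p = 0.00166) and higher in PU (0.76 ± 0.06 SE, limma adjusted p = 7.95e-15), and the KPT value was lost with KPT A and KPT C left out together (-0.19, limma adjusted p = 0.0558). TFEB was lower in KPT (-0.48 ± 0.07 SE, limma adjusted p = 7.94e-07) and not called in PU (0.02 ± 0.07 SE, limma adjusted p = 0.815). Without PU B, 2 members in place of 4 were lower in PU than in IB, and 2835 of all genes in place of 3066.

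The effect of IB was set between the lines in a fit over both tables that compares each line's IB libraries with its own DMSO libraries. Of 36 members tested in both, 11 had a higher effect in JEKO1 (21.7% of all 10632 genes) and 7 a lower one (19.6%). In both lines 8 members were called, of which 5 went opposite ways (62.5%, against 89% of all genes called in both) and 3 the same way. CTSZ, GLA, ATP6V0D1 and UVRAG rose in JEKO1 and fell in MAVER, and MAP1LC3B did the reverse. CTSS, PSAP and LIPA fell in both lines. Each of these 3 had a call that was lost under an alternative. LIPA in both lines and CTSS in JEKO1 lost theirs without single libraries, as given above. PSAP in MAVER lost its call with limma run without the trend (-0.145, limma adjusted p = 0.0664). Among the 5 that went opposite ways, UVRAG in MAVER lost its call without single libraries. The difference in effect was largest for CTSZ (2.08 ± 0.07 SE, limma adjusted p = 2.23e-18). It was 1.03 ± 0.11 SE, limma adjusted p = 1.33e-08 for GLA, 0.90 ± 0.11 SE, limma adjusted p = 1.45e-07 for TFE3, 0.71 ± 0.07 SE, limma adjusted p = 1.87e-08 for ATP6V0D1 and 0.58 ± 0.09 SE, limma adjusted p = 3.89e-06 for TFEB. On the other side stood GABARAPL1 (-1.06 ± 0.28 SE, limma adjusted p = 0.0033), GAA (-0.97 ± 0.17 SE, limma adjusted p = 3.58e-05) and MAP1LC3B (-0.51 ± 0.08 SE, limma adjusted p = 4.2e-06). With the JEKO1 labels exchanged, 10 members would have the higher and 5 the lower effect in JEKO1. Of all 10632 genes, 1042 would then have the higher and 1379 the lower effect, against 2309 and 2081 for the labels as given.

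**Figure D5:**
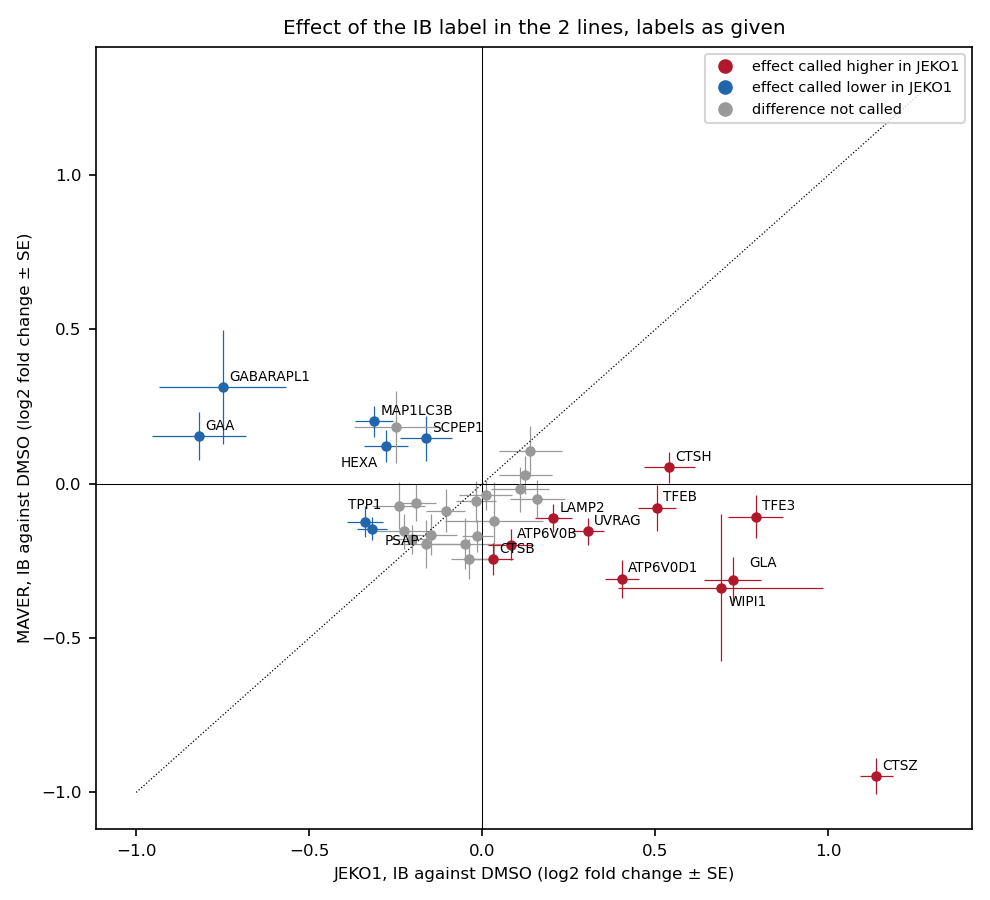
Log2 difference ± SE of IB against DMSO for 36 members in JEKO1 (horizontal) and MAVER (vertical), labels as given; red and blue mark members whose effect differed between the lines, and the dotted line marks equal effects. CTSZ lies farthest from that line, at 1.14 in JEKO1 and -0.95 in MAVER.

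Other genes of the same pathways were taken from lists of known lysosomal, V-ATPase, autophagy and mTORC1 genes. Like the members, these lists were chosen with earlier results of these data known. The shares of the listed genes are thus a description and no independent support for those of the members. They are read against the shares of all genes given above: 27.3% up and 28.5% down with KPT, 27.6% and 27.5% with PU, 10.1% and 9.65% with IB in MAVER, and 21.9% and 20.2% in JEKO1. Of 30 other lysosomal hydrolases tested in MAVER, 13 rose and 4 fell with KPT (43.3% and 13.3%) and 16 rose and 4 fell with PU (53.3% and 13.3%). LGMN, the asparagine endopeptidase, rose with KPT from 439 ± 3.60 to 1199.5 ± 15.3 (1.45 ± 0.06 SE, limma adjusted p = 7e-23), and the cysteine protease CTSF did from 86.6 ± 3.52 to 238 ± 6.04 (1.45 ± 0.11 SE, limma adjusted p = 4.61e-14). PLA2G15, the lysosomal phospholipase, rose with PU from 194 ± 10.4 to 463 ± 32.8 (1.25 ± 0.08 SE, limma adjusted p = 1.06e-16) and with IB (0.96 ± 0.08 SE, limma adjusted p = 1.22e-12). GM2A, the activator that lifts gangliosides to HEXA, fell with IB in MAVER from 3557 ± 46.2 to 2155 ± 51.3 (-0.72 ± 0.04 SE, limma adjusted p = 1.51e-17). These are means ± SD of 3 libraries each. In JEKO1, 10 of 31 such hydrolases rose and 9 fell with IB (32.3% and 29%), with ACP5 falling from 81.7 ± 8.16 to 32.1 ± 5.85 (-1.33 ± 0.18 SE, limma adjusted p = 6.61e-06). Of 12 other V-ATPase subunits in MAVER, 3 rose and 4 fell with KPT (25% and 33.3%, near the shares of all genes) and 5 rose and 4 fell with PU (41.7% and 33.3%). V0 subunits went both ways: TCIRG1, a form of the large V0 subunit, rose with KPT (0.44 ± 0.10 SE, limma adjusted p = 0.000366). ATP6V0A1, another form, rose with PU from 437 ± 18.6 to 916 ± 10.9 (1.07 ± 0.06 SE, limma adjusted p = 1.49e-17), and ATP6V0A2 fell with KPT from 854 ± 46.5 to 478 ± 29.5 (-0.84 ± 0.06 SE, limma adjusted p = 6.13e-15).

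Of 39 other autophagy genes in MAVER, 21 rose and 10 fell with KPT (53.8% and 25.6%), and 23 rose and 6 fell with PU (59% and 15.4%). With IB, 5 rose and 3 fell (12.8% and 7.69%), near the shares of all genes. BNIP3L, a receptor for the removal of mitochondria, rose with KPT from 332 ± 21.3 to 674 ± 30.4 (1.02 ± 0.07 SE, limma adjusted p = 5.63e-16). RB1CC1, a scaffold of the ULK1 complex, also rose with KPT from 620.2 ± 4.67 to 1201 ± 2.04 (0.95 ± 0.06 SE, limma adjusted p = 3.38e-17). CALCOCO2, a cargo receptor, rose with PU from 439 ± 27.3 to 987 ± 34.3 (1.17 ± 0.07 SE, limma adjusted p = 1.68e-17). In JEKO1, 6 of 38 rose and 10 fell with IB (15.8% and 26.3%), and the cargo receptors SQSTM1 (0.66 ± 0.06 SE, limma adjusted p = 1.12e-08) and OPTN (0.78 ± 0.08 SE, limma adjusted p = 6.85e-08) were among those that rose. Among 34 genes of mTORC1, its Rag GTPases and folliculin in MAVER, 11 rose and 8 fell with KPT and 11 rose and 8 fell with PU (32.4% and 23.5% each time), near the shares of all genes, while 1 rose (2.94%) and 0 fell with IB. That gene was TSC1, part of the complex that restrains mTORC1 (0.25 ± 0.08 SE, limma adjusted p = 0.016). RRAGD, a Rag GTPase that brings TFEB to the lysosome, rose with KPT from 53.2 ± 4.77 to 155 ± 5.06 (1.52 ± 0.15 SE, limma adjusted p = 4.97e-11) and was lower in PU, at 54.1 ± 0.735 (limma adjusted p = 7.15e-11 against KPT). SESN3 and SESN2, stress proteins that restrain mTORC1, rose with PU (1.44 ± 0.10 SE, limma adjusted p = 2.46e-15 and 1.07 ± 0.11 SE, limma adjusted p = 1.2e-10). The SESN3 level was not particular to PU: it stood at 182 ± 12.2 in DMSO, 301 ± 36.6 in KPT and 497 ± 58.9 in PU. RPTOR, the subunit that holds substrates to mTORC1, was higher in PU than in KPT (1.41 ± 0.06 SE, limma adjusted p = 4.3e-23). Of 25 other lysosomal membrane and sorting genes in MAVER, 9 rose and 5 fell with KPT (36% and 20%) and 11 rose and 2 fell with PU (44% and 8%). TPCN1, an ion channel of that membrane, rose with IB in MAVER from 586 ± 13.4 to 984 ± 50.5 (0.75 ± 0.06 SE, limma adjusted p = 8.98e-13) and fell in JEKO1 from 778 ± 29.5 to 421 ± 68.2 (-0.90 ± 0.09 SE, limma adjusted p = 5.2e-08).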

How the data were processed

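Total RNA of 18 libraries was sequenced (50 bp single-end reads of a stranded kit, per the labels' protocols). The same protocols name FastQC, STAR, Cufflinks and DESeq2, and the submitters' processing notes name hg19. The sources used here do not name the read counter, annotation or strand setting. The authors deposited normalized counts, a linear signal, in 1 table for each line, normalized separately, so no level is compared between lines. Dividing each value by that of 1 read in its library gave whole reads, within 0.01 read, for 100% of values.

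The members and all lists were chosen with earlier results of these data known. The text names all 39 members and, of each other list and comparison, genes from the 2 called genes with the largest change with a mean no lower than 50 and groups that did not overlap, beside XPO1 and RNA45S5. Genes with a mean of at least 10 were tested with limma 3.58.1 (R 4.3.3; linear model, empirical Bayes with trend) on log2(normalized count + 1), with Benjamini-Hochberg adjustment over all genes. The 4 MAVER groups (12 libraries) were fitted together, JEKO1 alone, and the difference between lines in 1 fit of both. Adding 1 before the logarithm understates changes of low genes. The code was also run on simulated counts with the same spread setting for every gene, a simpler case than these data. That run lends no support to the calls reported here. Alternatives were edgeR 4.0.16 and DESeq2 1.42.0 on the recovered reads, other pseudocounts, filters and scalings, thinning, a replicate block and leaving out libraries. Replicates of a group differed by more than counting noise (chi-square per degree of freedom 1.39 to 4.92). Promoter windows are RefSeq's (GRCh38.p14), and exon overlaps were taken from GENCODE annotation of GRCh38.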

Additional observations from a re-analysis of the deposited data

Results flagged for a closer look

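In 18 of the 36 members tested in both lines, the effect of IB differed between JEKO1 and MAVER in limma's test of the difference itself (adjusted p under 0.05). That is 50% of the members, where the effect differed for 41.3% of all 10632 genes. The values are the log2 effect in JEKO1 minus that in MAVER, for the labels as given. Higher in JEKO1 were CTSZ (2.08), GLA (1.03), WIPI1 (1.03), TFE3 (0.90), ATP6V0D1 (0.71), TFEB (0.58), CTSH (0.49), UVRAG (0.46), LAMP2 (0.32), ATP6V0B (0.28) and CTSB (0.28). Lower in JEKO1 were GABARAPL1 (-1.06), GAA (-0.97), MAP1LC3B (-0.51), HEXA (-0.40), SCPEP1 (-0.31), TPP1 (-0.22) and PSAP (-0.17). The difference was not called for 3 of these when single libraries were left out. For SCPEP1 this held without JEKO1 DMSO A (-0.26, limma adjusted p = 0.0798), JEKO1 IB C (-0.27, limma adjusted p = 0.0684), MAVER DMSO A (-0.26, limma adjusted p = 0.0784), MAVER DMSO C (-0.27, limma adjusted p = 0.0704) or MAVER IB B (-0.28, limma adjusted p = 0.0641). For PSAP it held without JEKO1 DMSO A (-0.16, limma adjusted p = 0.0546), JEKO1 DMSO B (-0.15, limma adjusted p = 0.0631), JEKO1 IB C (-0.13, limma adjusted p = 0.069), MAVER DMSO C (-0.15, limma adjusted p = 0.0643) or MAVER IB A (-0.15, limma adjusted p = 0.0598). For WIPI1 it held without JEKO1 DMSO B (0.93, limma adjusted p = 0.0721), JEKO1 IB B (0.76, limma adjusted p = 0.129), MAVER DMSO B (1.04, limma adjusted p = 0.0541), MAVER DMSO C (0.91, limma adjusted p = 0.093) or MAVER IB C (0.81, limma adjusted p = 0.104).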

How the results depend on the processing

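In MAVER with IB, 1 member in place of 2 rose with no filter on low values and without the trend in limma, and leaving out single libraries gave 1 to 2 (1 without DMSO A, IB A or IB B). Of all genes, 992 (of 16640 then tested), 918, 905, 956 and 894 rose in these settings, in that order, in place of 1126. In JEKO1, 6 members in place of 10 fell without the trend, where 1863 of all 11609 genes fell in place of 2341. In PU against KPT, fewer members and fewer of all genes were lower with KPT A and KPT C left out together. That setting keeps KPT B as the only KPT library. In PU against IB, leaving out single libraries gave 2 to 4 lower members in place of 4 (2 without PU B, where 2835 of all genes were lower in place of 3066). The causes were not tested. The other counts of members stayed within 1.5 times the reported one under every alternative run. Rescaling to equal totals or upper quartiles gave 17 and 22 members that rose with PU in place of 19. Of all genes, 2674 and 3348 then rose with PU in place of 3066. Libraries with the same letter correlated at -0.09 to 0.12 in their deviations from the group means, and those with different letters at -0.13 to 0.14. With 3 libraries in each group, this cannot show whether a letter marks a shared batch. With the letter as a replicate block, 13 members fell in JEKO1 in place of 10, where 2688 of all 11609 genes fell in place of 2341. In MAVER 10 members fell with IB in place of 11, and the difference between lines had 12 higher and 8 lower in place of 11 and 7. Of all genes, 1055 fell with IB in MAVER in place of 1071. The difference between lines had 2490 of all genes higher and 2222 lower in place of 2309 and 2081.

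Exchanging the JEKO1 labels turns the sign of each JEKO1 effect by construction. Among members whose difference between lines was called with the labels as given or exchanged, the sign of that difference turned for 20: TFEB -0.43, TFE3 -0.68, LAMP2 -0.0937, CTSD 0.25, CTSH -0.59, CTSS 0.38, CTSZ -0.19, TPP1 0.46, SCPEP1 0.0151, GLA -0.41, GAA 0.66, HEXA 0.16, PSAP 0.46, ASAH1 0.31, LIPA 0.38, ATP6V0D1 -0.0949, UVRAG -0.15, WIPI1 -0.35, MAP1LC3B 0.11 and GABARAPL1 0.44. Under the exchange 12 of these 20 were called. The other 8 (LAMP2, SCPEP1, HEXA, ATP6V0D1, UVRAG, WIPI1, MAP1LC3B and GABARAPL1) changed sign without being called (limma adjusted p = 0.0738 to 0.942). Depth limits MITF and, in JEKO1, SGSH, which were not tested. Near the threshold, DESeq2 did not call LIPA with IB (adjusted p = 0.0815 in JEKO1 and 0.0775 in MAVER), NAGLU with PU (0.0621) or the difference between lines for WIPI1 (0.066). With reads thinned to the shallowest MAVER library, limma did not call LAMP1 (adjusted p = 0.0598) or LIPA (0.106) with IB, UVRAG with KPT (0.0738) or ATP6V1B2 with PU (0.151). Among direct contrasts, limma then lost CTSZ in KPT against IB (adjusted p = 0.0505) and SGSH (0.0784), ULK1 (0.0752) and LAMP2 (0.0736) in PU against KPT, beside others. On equal totals limma did not call GLA (adjusted p = 0.0641) or NAGLU (0.0872) with PU, or LIPA with IB in MAVER (0.0616). With the replicate block it did not call LIPA with IB in MAVER (adjusted p = 0.0505).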
